A study of Mus musculus with 30 samples.

Results

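Cytosolic ribosomal protein genes encode the protein components of the small and large subunits of the ribosome that translates messenger RNA in the cytoplasm. Their transcripts are among the most abundant of a T cell and begin with a pyrimidine tract through which growth signals set how strongly they are translated. A T cell that leaves rest enlarges its ribosome supply, and nucleolar factors assemble the new subunits. The genes were followed here in sorted CD4+ T cells on Affymetrix MG-U74Av2 arrays, as the log2 of the deposited intensity of each probe set (a group of short oligonucleotides that reads 1 transcript). Members were the probe sets whose only gene symbol named a ribosomal protein of the large subunit (Rpl, Rplp) or the small subunit (Rps, Rpsa). Symbols of ribosomal S6 kinases and pseudogenes were left out. The choice gave 49 probe sets of 35 genes, 17 of the large and 18 of the small subunit, among 12422 probe sets tested. The rule used symbols only and no measured value. It also admitted paralogues (Rpl39l, Rps4l, Rps27l) and Rpl7l1, a nucleolar relative of Rpl7. A further 39 probe sets named a ribosomal protein gene together with other loci, mostly pseudogenes or predicted genes, and were kept apart. No member probe set read Rplp1, Rplp2, Rps6, Rps27a, Rpl5 or Rpl11.

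All 30 arrays held cells of NOD mice, a strain that develops autoimmune diabetes, carrying the BDC2.5 T cell receptor transgene, so that most T cells of these mice share 1 islet-reactive receptor. Pancreas set 1 came from the pancreas of mice given rat IgG, with 3 arrays of regulatory T cells (Treg, sorted CD4+CD25+CD69-) and 5 of effector T cells (Teff, CD4+ with CD25 low or negative and CD69 of either kind). Their age was not labelled. Pancreas set 2 came from the infiltrated pancreas of mice given antibody to ICOS, a costimulatory receptor, with 3 Treg arrays (CD4+CD25+) and 3 Teff arrays (CD4+CD25-) at 26 days of age. It also held 2 IgG Treg arrays (CD4+CD25+CD69-), replicate 1 at 4 weeks and replicate 2 at 26 days. Replicate 2 carried the array number of Treg replicate 3 of set 1, so these entries are 1 array in both sets. The lymph node set came from mice at 4 weeks, for which no treatment is labelled, with 5 CD4+CD25+ and 3 CD4+CD25- arrays of mesenteric nodes and 3 of each sort from peripheral nodes. Peripheral arrays carried a mesenteric tissue entry, and titles were followed. No label says whether animals were pooled or replicates came from separate animals, so p-values rest on the spread among these samples only, which may be technical. In sorted bulk samples, fewer cells of a type and less RNA per cell cannot be told apart.

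The arrays were first set against their labels. Il2ra, which encodes CD25, was between 3.68 and 4.33 in every Teff or CD25- array and between 5.0 and 7.03 in every Treg or CD25+ array but 1. That array, the library labelled anti-ICOS Treg replicate 3, had Il2ra at 3.88 and went against its label, so the counts and medians that rest on it most are given with and without it. Mesenteric CD25+ replicate 2, whose source name reads CD25-, had Il2ra at 5.50, near the other mesenteric CD25+ arrays. The mean of 9 T cell identity genes (Cd3e, Cd4, Thy1 and others) ran from 7.91 to 8.62 in pancreatic and from 7.24 to 8.20 in lymph node arrays. The lowest of all, 7.24, belonged to peripheral CD25+ replicate 1, which also had the lowest Cd3g (7.48), Cd4 (5.98) and Thy1 (7.39) of the 30. The lowest Cd3e (7.86) was that of mesenteric CD25+ replicate 4. Set 2 IgG Treg replicate 1 had the highest Lyz2 (9.12, against a median of 3.38), a gene of macrophages, and the highest Hba-a1 (13.21), a globin gene. The log2 ratio of the actin control probe sets at the 3' and 5' end of the transcript, which is higher where labelled RNA is shorter, ran from 2.16 to 4.53. It averaged 3.75 in Treg and 2.65 in Teff arrays of set 1 (two-sided p = 0.0357 by exact permutation of 56 splits, or 0.175 after Benjamini-Hochberg adjustment over 7 such tests).

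Promoter sequence is shown for the members on which the results below turn. Rpl22, Rps18 and Rpl39l passed the test in a comparison, and Rpsa, Rps10 and Rpl13a passed it in the nodes once peripheral CD25+ replicate 1 was left out. Rps4l also passed a test and is named without a window. Each window runs from 60 bases before to 20 bases after a transcription start, 5′ to 3′ on the strand of the gene, from RefSeq on GRCm38.p6. Capitals mark CCGGAAG or its reverse complement (the core of ETS family sites such as GABP) and CTTTCC (a pyrimidine run of the kind found at ribosomal protein start sites, searched on the strand of the gene). The windows lie at chr4:152325666-152325745 (+) for Rpl22, chr17:33955646-33955725 (-) for Rps18, chr16:10170168-10170247 (+) for Rpl39l, chr9:120127706-120127785 (+) for Rpsa, chr17:27635225-27635304 (-) for Rps10 and chr7:45128726-45128805 (-) for Rpl13a. Rpl22 has another annotated start, with a window at chr4:152324376-152324455 (+) that held none of the motifs searched.
Rpl22: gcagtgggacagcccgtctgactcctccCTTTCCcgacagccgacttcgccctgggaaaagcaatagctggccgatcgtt
Rps18: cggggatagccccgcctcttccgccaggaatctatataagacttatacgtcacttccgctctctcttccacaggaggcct
Rpl39l: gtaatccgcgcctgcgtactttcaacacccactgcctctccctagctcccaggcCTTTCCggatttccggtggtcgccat
Rpsa: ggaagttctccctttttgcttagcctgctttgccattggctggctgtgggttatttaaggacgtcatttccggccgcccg
Rps10: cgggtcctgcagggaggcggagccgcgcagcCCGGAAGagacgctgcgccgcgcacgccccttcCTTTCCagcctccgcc
Rpl13a: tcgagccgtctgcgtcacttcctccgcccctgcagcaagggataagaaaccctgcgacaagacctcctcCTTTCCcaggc

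The promoter table held 28 of the 35 member genes, with 37 windows. CCGGAAG stood in 8 windows (21.6%), against 4.76% of the 32851 windows of all genes in the table. CTTTCC stood in 9 windows (24.3%, against 3.77%), and AAGATGGC, a core of YY1 sites searched on both strands, in 2 windows (5.41%, against 0.63%), which are overlapping starts of Rpl35a, so that 1 of 28 genes held it. CCGGAAG and CTTTCC each stood in windows of 8 genes. Of the windows shown, that of Rps10 held both of the capitalised motifs, those of Rpl22, Rpl39l and Rpl13a held CTTTCC, and Rps18 and Rpsa held neither in these letters. A match is a description of the letters in these windows.

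The signals of the members fell into a bright and a dim part. Averaged over the 30 arrays, 21 probe sets of 19 genes lay above a log2 intensity of 8, a limit set after the values were seen, and all 21 were within the top 5% of all probe sets. They are called bright members here. Just inside the limit were Rpsa, a small subunit protein once described as a laminin receptor (8.35), and Rpl37a (8.54), and just outside it were Rpl13a (7.60) and Rps13 (7.31). The 5 genes with the strongest signal were Rps24 (12.06), Rpl41, which encodes the smallest ribosomal protein (11.91), Rps3 (11.62), Rps28 (11.39) and Rplp0, the scaffold of the acidic stalk of the large subunit (11.17). The 5 with the weakest were Rps15 (3.06), Rps14 (3.42), Rpl39 (3.46), Rps20 (3.90) and Rpl32 (3.99). A signal depends on the probes as well as on the transcript, so these values do not order the genes by abundance.

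**Figure D1:**
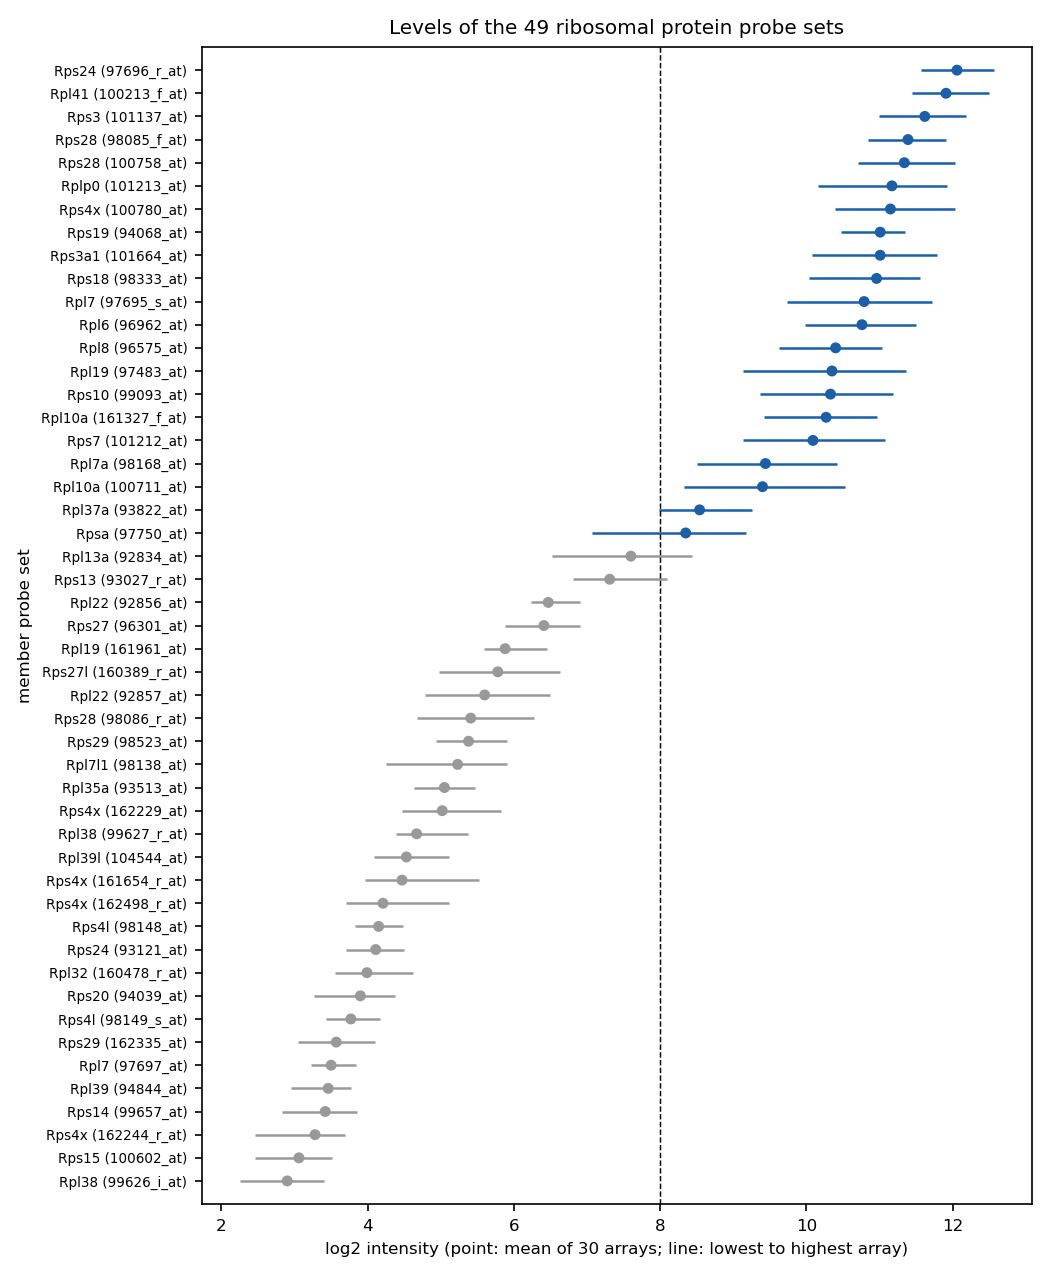
Mean log2 intensity of each of the 49 member probe sets over 30 arrays (points), with lines from the lowest to the highest array. The 21 probe sets right of the dashed line at 8 (blue) are the bright members, and the 28 others are grey.

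Probe sets of the same gene often disagreed. Of 10 genes with more than 1 probe set, 5 had means more than 3 log2 units apart. Rps24 was at 4.11 and 12.06, Rps4x, the X-linked small subunit protein, between 3.28 and 11.15 over 5 probe sets, Rpl7 at 3.50 and 10.79, Rps28 between 5.41 and 11.39 over 3, and Rpl19 at 5.88 and 10.35. The brighter Rps24 probe set shares its accession with the brighter Rpl7 probe set, so its name is uncertain. In all, 33 members lay above the median of all probe sets and 16 at or below it. For 16 genes no probe set was bright.

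In pancreas set 1, which asks how Treg and Teff cells of the pancreas differ, bright ribosomal protein transcripts were mostly a little lower in Treg cells. The bright member mean of each array was 10.86, 10.75 and 10.77 in Treg and 11.26, 10.99, 10.72, 10.86 and 10.93 in Teff cells, so the groups overlapped. The log2 difference, Treg minus Teff, was below 0 for 17 of 21 bright members, with a median of -0.12, against -0.09 over the 711 probe sets of the array as bright and 0.03 over all. With limma and Benjamini-Hochberg adjustment over all probe sets, 2 of 49 members passed the test at 0.05, both lower, against 6.69% of all probe sets in either direction, 3.93% higher and 2.76% lower. An unadjusted p under 0.05 was reached by 13 of 49 members (26.5%), against 20.3% of all probe sets.

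Rpl22, a large subunit protein that mouse αβ T cells need for their development, fell in Treg cells on 1 of its 2 probe sets. On 92857_at it was 5.01, 5.44 and 5.65 in Treg and 6.14, 6.0, 6.33, 6.26 and 6.41 in Teff cells. No Treg array reached the lowest Teff array. The log2 difference was -0.86 with an SE of 0.15 (limma, adjusted p = 0.00738), or 1.82-fold. The brighter probe set of the gene, 92856_at, differed by -0.06. In the other comparisons of the sorts, 92857_at differed by -0.52 (anti-ICOS), -0.19 (mesenteric) and -0.55 (peripheral, adjusted p = 0.195), and passed in none of them.

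Rps18, a protein of the small subunit head, fell as well. It was 10.72, 10.93 and 11.07 in Treg and 11.56, 11.44, 11.27, 11.40 and 11.34 in Teff cells, without overlap. The log2 difference was -0.50 (SE 0.10, adjusted p = 0.0198, limma), or 1.41-fold. Without Treg replicate 1 the adjusted p was 0.0563, without Treg replicate 2 it was 0.0586, and with the actin ratio as a covariate it was 0.499 (-0.42). The same covariate left Rpl22 at -0.79 (adjusted p = 0.273), in a fit in which 86 of all probe sets passed instead of 831. The bright median of set 1 in that fit was -0.09, with 15 of 21 below 0, against 0.00 over all bright probe sets. The part of the actin ratio in these differences was not tested beyond that fit. With the array-number run as a block both genes still passed (adjusted p = 0.00288 for Rpl22 and 0.043 for Rps18).

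**Figure D2:**
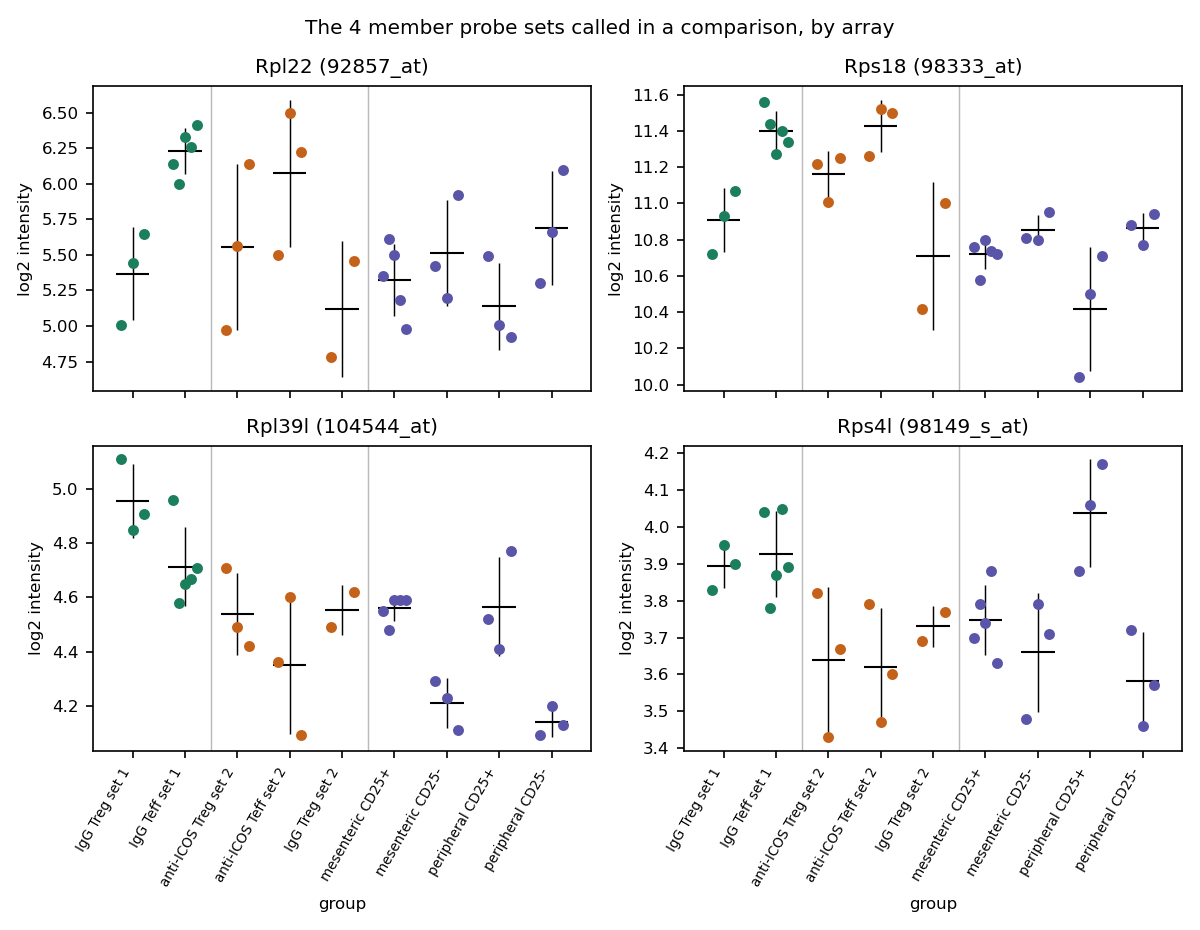
Log2 intensity (y) of the 4 member probe sets that passed the test in a comparison, by group (x), with 1 point per array in order of replicate number, the group mean (bar) and SD (line). Rpl22 and Rps18 were lower in all 3 IgG Treg than in all 5 Teff arrays of set 1, and Rpl39l was higher in CD25+ than in CD25- arrays of both nodes.

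The groups did not overlap for 7 members that were lower in Treg cells, 6 of them bright, and for 1 that was higher (5.58% and 8.53% of all probe sets). Among all 711 bright probe sets, 103 were lower and 76 higher without overlap. Beside Rps18, the bright members that were lower without overlap included Rps3a1, which averaged 11.05 in Treg and 11.51 in Teff cells (-0.45, adjusted p = 0.0624). Others were Rpl7 (-0.40, adjusted p = 0.074), Rps28 (-0.34, adjusted p = 0.095) and Rps4x (-0.38, adjusted p = 0.108). Rps3a1 passed after quantile normalization (-0.40, adjusted p = 0.0408) and without Treg replicate 3 (-0.54, adjusted p = 0.0445). Values on the other side of 0 were those of Rpsa, 9.15, 8.89 and 8.89 in Treg against 8.96, 8.37, 8.11, 8.75 and 8.55 in Teff cells, a difference of 0.43 (adjusted p = 0.193). Rps27l, a paralogue of Rps27 that p53 induces, was 6.56, 6.63 and 6.55 in Treg and 5.96, 5.59, 5.70, 6.59 and 5.55 in Teff cells (0.70, adjusted p = 0.0804). Without Teff replicate 4, its 1 high Teff array, the difference was 0.88 (adjusted p = 0.00398), and 98086_r_at of Rps28 also passed (0.57, adjusted p = 0.0208).

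Array numbers in the labels fall into runs, called A to E here. Within run A (1 Treg and 2 Teff arrays) the bright median was -0.22, within run C (1 and 2) -0.19 and within run B (1 and 1) 0.06. Treg replicate 1 was the array whose removal moved the bright median most, to -0.24. Without Teff replicate 1, the highest array of the set, it was -0.06, with 15 of 21 below 0. Markers of other cells were read beside the members. Of 7 B cell probe sets 1 was higher in Treg cells (Cd79b, 0.69), while 4 of the list lay above and 3 below 0 (median 0.04). None of 11 macrophage, dendritic cell and granulocyte, 5 exocrine, 7 islet, 10 stromal and endothelial, 3 CD8 and NK and 2 erythroid probe sets passed (limma), while 1, 0, 4, 0, 0 and 1 of them had an unadjusted p under 0.05. Both erythroid probe sets lay above 0, with a median of 0.82, and the mean of the list ran from 8.83 to 9.38 in Treg and from 7.20 to 9.10 in Teff arrays. The islet median was 0.23, with 6 of 7 above 0. The part of these markers in the member differences was not tested.

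Genes that build and use ribosomes were read from lists beside the members. Of 33 nucleolar and ribosome assembly probe sets, 8 were lower in Treg cells and none higher. The nucleolar chaperone Npm1 fell by 1.06 (adjusted p = 8.84e-04), the RNA methyltransferase Fbl by 1.16, Ncl by 1.80 and Gnl3 by 0.98. Of 57 initiation factor probe sets, 8 were lower, among them the helicase cofactor Eif4b (-0.78) and the helicase Eif4a2 (-1.27), and 2 were higher, Eif4e2 (0.56) and Eif4ebp1 (0.41), which encodes a repressor of cap binding. Of 13 elongation probe sets, 1 was lower (Eef1a1, -0.41, adjusted p = 0.0487). Of 76 mitochondrial ribosome probe sets, 5 were higher, with Mrps25 at 0.89, and none lower. Of 18 growth control probe sets, Eif4ebp1 alone passed. These counts stand against the same 6.69% of all probe sets. In the anti-ICOS comparison of Treg and Teff cells, with all its arrays, no probe set of these lists passed. There 19 of 33 nucleolar and assembly probe sets lay below 0 and 14 above (median -0.02). Of the initiation factors 33 of 57 lay below 0 (median -0.11), and of the elongation list 11 of 13 (median -0.15).

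In mice given anti-ICOS, no member passed the test between Treg and Teff cells, and no probe set of the array did (0%, limma), though 2 members (4.08%) and 209 of all probe sets (1.68%) had an unadjusted p under 0.05. The bright member mean was 10.78, 10.76 and 10.82 in Treg and 11.11, 11.01 and 10.91 in Teff cells, so that each Teff array lay above each Treg array. Of 21 bright members 18 lay below 0, with a median of -0.21, against -0.01 over all bright probe sets and 0.01 over all probe sets. Groups did not overlap for 7 members, all bright and all lower in Treg cells (1.80% of all probe sets were lower and 3.11% higher without overlap). Among all 711 bright probe sets, 27 were lower and 22 higher without overlap. Without the library labelled anti-ICOS Treg replicate 3, the bright median was -0.24, with 16 of 21 below 0 and none passing. Of 49 members 14 were then lower without overlap, 13 of them bright, and 4 higher (6.32% and 11.4% of all probe sets). Of the marker lists, with all arrays, 2 of 2 erythroid (median -1.07) and 5 of 5 exocrine probe sets (median -0.24) lay below 0. The medians of the B cell, islet and macrophage lists were 0.02, 0.02 and -0.03. The part of these markers in the member differences was not tested. With replicate numbers as a block, 0 members passed. The bright median stayed at -0.21, which this block cannot change, since both groups hold each replicate number once.

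The smallest unadjusted p belonged to Rps28, a small protein near the messenger RNA exit of the small subunit. On 100758_at it was 10.76, 11.22 and 11.48 in Treg and 11.86, 11.82 and 11.67 in Teff cells, without overlap (-0.63, SE 0.20, adjusted p = 1). Without the library labelled replicate 3 the difference was -0.80 (adjusted p = 0.36). Rpl10a, of the L1 stalk of the large subunit, was 9.75, 9.68 and 9.55 against 10.18, 10.31 and 9.87 on 100711_at (-0.46, SE 0.15, adjusted p = 1). Its other bright probe set, 161327_f_at, differed by 0.09. Rpl6 was 10.40, 11.05 and 11.22 against 11.43, 11.44 and 11.16, where 1 Treg array lay above a Teff array (-0.46, SE 0.24, adjusted p = 1). Without the library labelled replicate 3, Rpl10a differed by -0.41 and Rpl6 by -0.62 (adjusted p = 0.878 and 0.824). The actin ratio of these arrays was 4.06, 2.45 and 2.65 in Treg and 2.41, 2.16 and 2.30 in Teff cells (exact permutation p = 0.1, the smallest that 20 splits allow in a two-sided test). With the actin ratio alone as a covariate the bright median was -0.16, with 19 of 21 below 0, against 0.18 over all bright probe sets. With replicate block and actin ratio together it was -0.04, with 12 of 21 below 0, in a fit with few arrays for its terms. The difference of the Treg minus Teff contrast between IgG (set 1) and anti-ICOS mice was tested directly. No member passed, none had an unadjusted p under 0.05, and 0% of all probe sets passed. The bright median of that difference was 0.05, and 0.10 without the library labelled anti-ICOS Treg replicate 3.

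Within set 2, anti-ICOS Treg cells were compared with IgG Treg cells, whose gate also excluded CD69+ cells. No member passed (0% of all probe sets), and 4 members (8.16%) had an unadjusted p under 0.05, against 3.42% of all probe sets. Bright members were higher with anti-ICOS in 20 of 21 cases, with a median of 0.16, but the median over all bright probe sets was 0.21, and quantile normalization left 12 of 21 above 0 (median 0.03). Rpl7a, a large subunit protein next to the nascent chain exit, was 9.96, 10.01 and 9.94 with anti-ICOS and 9.46 and 9.53 with IgG (0.48, SE 0.17, adjusted p = 0.893). Rpl10a was 9.75, 9.68 and 9.55 against 9.15 and 9.26 (0.45, SE 0.17, adjusted p = 0.893). In both genes each anti-ICOS array lay above each IgG array. Without the library labelled anti-ICOS Treg replicate 3, Rpl7a differed by 0.49 and Rpl10a by 0.51 (adjusted p = 0.991). Without IgG replicate 1, the array with the highest Lyz2 and Hba-a1 and with an actin ratio of 4.16, the bright median was 0.03. Without the library labelled anti-ICOS Treg replicate 3 it was 0.16. IgG replicate 1 also lies in run E, with node arrays, while the other arrays of set 2 lie in runs A to C. With all arrays, the erythroid median was -2.69. Below 0 lay 9 of 11 macrophage, dendritic cell and granulocyte (median -0.35), 6 of 7 islet (-0.32), 6 of 7 B cell and 5 of 5 exocrine probe sets. Their part in the member differences was not tested. Rpl7l1, at 5.49, 5.52 and 5.60 against 4.25 and 5.36, differed by 0.73 (SE 0.28, adjusted p = 0.893) and passed only without IgG replicate 2 (1.29, adjusted p = 0.0305), where a single IgG array is left and is assumed to vary like the other groups.

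In the mesenteric nodes bright ribosomal protein transcripts were mostly higher in CD25+ cells. The bright member mean was 10.23, 10.15, 10.39, 10.73 and 10.68 in CD25+ and 10.06, 10.15 and 10.06 in CD25- arrays, so the highest CD25- array equalled the lowest CD25+ array. The difference, CD25+ minus CD25-, was above 0 for 19 of 21 bright members, with a median of 0.34, against 0.02 over all bright probe sets and 0.04 over all. It was above 0 for all 10 bright large subunit probe sets (median 0.47) and for 9 of 11 small subunit ones (median 0.17). Only 1 of 49 members passed the test, Rpl39l, higher, while 12.2% of all probe sets passed in either direction, 4.66% higher and 7.53% lower. An unadjusted p under 0.05 was reached by 11 of 49 members (22.4%), against 24.8% of all probe sets. Of all bright probe sets, 212 of 711 passed.

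**Figure D3:**
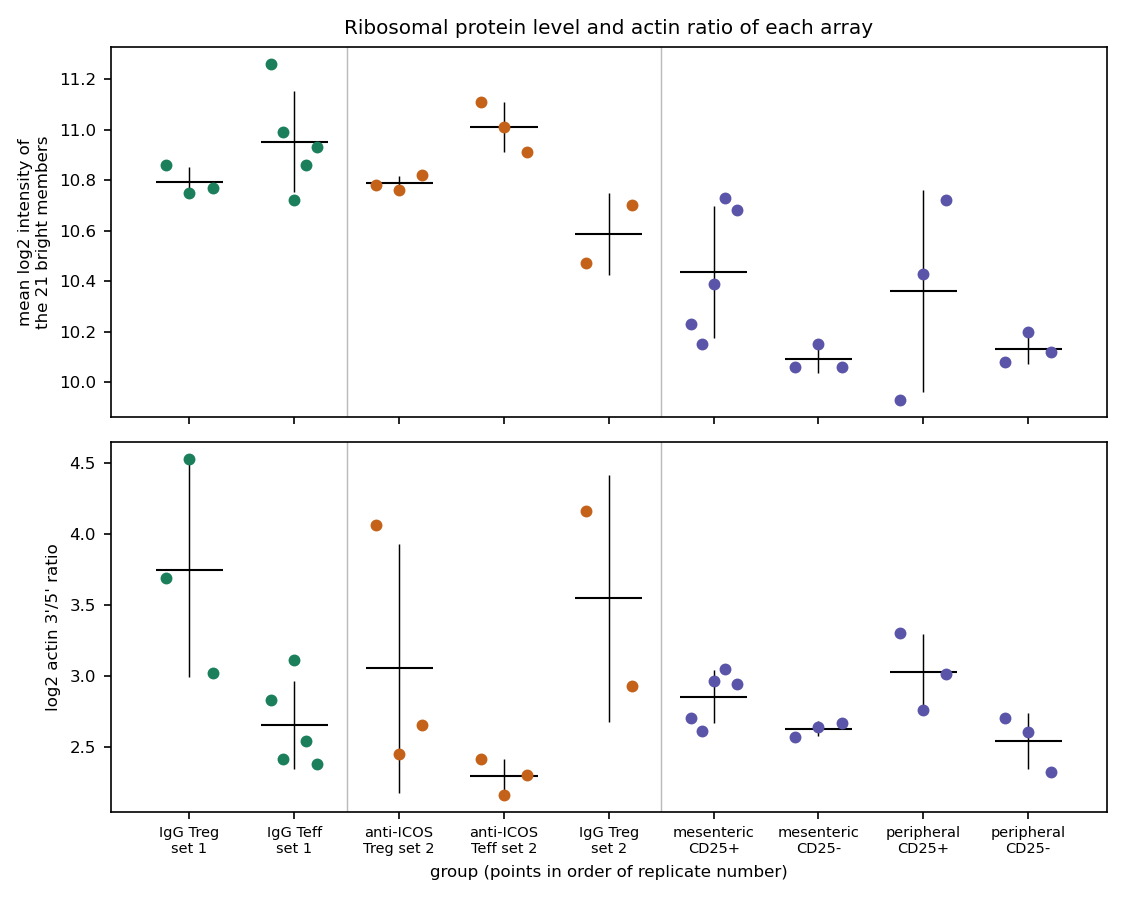
Mean log2 intensity of the 21 bright members (top) and log2 actin 3'/5' ratio (bottom) of each array by group, with points in order of replicate number, group means (bars) and SD (lines), in sets parted by grey lines. Mesenteric CD25+ arrays run from 10.15 to 10.73 and peripheral CD25+ arrays from 9.93 to 10.72, while all CD25- arrays lie between 10.06 and 10.20; levels are not compared across sets, which were processed separately.

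Rpsa had the largest difference of the bright members. It was 8.0, 7.79, 7.88, 8.91 and 8.83 in CD25+ and 7.46, 7.56 and 7.07 in CD25- cells, without overlap, a difference of 0.92 (SE 0.34, adjusted p = 0.0973, limma). Rpl10a (100711_at) was 8.75, 8.70, 9.40, 9.88 and 9.87 against 8.33, 8.67 and 8.69, also without overlap (0.76, SE 0.31, adjusted p = 0.14). Rps10 was 10.13, 9.94, 10.08, 10.74 and 10.63 against 9.50, 9.76 and 9.87 (0.60, SE 0.23, adjusted p = 0.116). In all 3 genes replicates 4 and 5 were the highest CD25+ arrays. Rpl8 differed by 0.56 (adjusted p = 0.119), Rps19, a gene mutated in Diamond-Blackfan anaemia, by 0.41 (adjusted p = 0.125), Rplp0 by 0.60 and Rpl19 by 0.64. Groups did not overlap for 6 members that were higher and 2 that were lower in CD25+ cells (12.1% and 9.43% of all probe sets).

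Rpl39l, a paralogue of Rpl39 best known from the testis, was 4.55, 4.48, 4.59, 4.59 and 4.59 in CD25+ and 4.29, 4.23 and 4.11 in CD25- cells of the mesenteric nodes. It rose by 0.35 (SE 0.08, adjusted p = 0.0156, limma), or 1.27-fold, with all 5 CD25+ arrays above all 3 CD25- arrays. In the peripheral nodes it was 4.52, 4.41 and 4.77 against 4.09, 4.20 and 4.13, again without overlap, and rose by 0.43 (SE 0.09, adjusted p = 0.0132, limma). These signals are dim, and the probe set was not among those above the median of all. In the mesenteric nodes the call was also lost without CD25- replicate 2 (adjusted p = 0.0558) or 3 (0.0706), with the actin ratio as a covariate (0.062) and with the replicate block (0.107). That block gives no weight to CD25+ replicates 4 and 5, whose numbers no other node group holds. In the peripheral nodes the call was lost with the covariate (0.37, adjusted p = 0.229). The difference in set 1 was 0.24, and with anti-ICOS 0.19.

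In the peripheral nodes the bright member mean was 9.93, 10.43 and 10.72 in CD25+ and 10.08, 10.20 and 10.12 in CD25- arrays, so the CD25+ arrays fell on both sides of the CD25- arrays. Replicate 1 lay below its group mean for 20 of 21 bright members, and replicate 3 above it for 21 of 21. The median difference was 0.20, with 18 of 21 above 0, against -0.04 over all bright probe sets and 0.05 over all. Of 49 members 2 passed, both higher and both dim, against 7.69% of all probe sets in either direction, 1.80% higher and 5.89% lower. Groups did not overlap for 3 members that were higher and 1 that was lower (9.63% and 10.8%). An unadjusted p under 0.05 was reached by 6 of 49 members (12.2%), against 20.8% of all probe sets. Beside Rpl39l this was Rps4l, a paralogue of Rps4x. On 98149_s_at it was 3.88, 4.06 and 4.17 in CD25+ and 3.72, 3.46 and 3.57 in CD25- cells, a rise of 0.45 (SE 0.11, adjusted p = 0.0217, limma), and on its other probe set the difference was 0.00. The call was lost without CD25- replicate 2 (adjusted p = 0.101) or 3 (0.0689), without CD25+ replicate 2 (0.0795) or 3 (0.0734) and with the actin covariate (0.191).

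Peripheral CD25+ replicate 1 had the lowest T cell identity mean and, at 3.30, the highest actin ratio of the node arrays. It was also the array whose removal added most members in the nodes. Without it the bright median of the peripheral comparison was 0.35, with 19 of 21 above 0, and 5 members passed, all higher (10.2%, against 11.8% of all probe sets in either direction and 4.44% higher in that fit). They were Rpl39l, Rps4l, Rpsa (1.13, adjusted p = 0.0498), Rps10 (0.93, adjusted p = 0.0174) and Rpl13a, a large subunit protein also known for silencing translation in inflammation (0.65, adjusted p = 0.0405). In the mesenteric comparison, which shares its estimate of the spread, 4 passed without it, all higher (8.16%, against 15.1% of all probe sets in either direction and 6.77% higher): Rpl39l, Rpsa (0.92, adjusted p = 0.0382), Rps10 (0.60, adjusted p = 0.0437) and Rpl13a (0.58, adjusted p = 0.02). Other arrays moved the counts too. None passed in the mesenteric comparison without mesenteric CD25- replicate 2 or 3, and 2 passed without peripheral CD25- replicate 1. In the peripheral comparison 1 passed without CD25- replicate 2 or 3 or CD25+ replicate 2. Without peripheral CD25+ replicate 3, the peripheral bright median was 0.09, with 13 of 21 above 0. Over the lymph node CD25+ arrays the T cell identity mean was 7.73, 7.59, 7.97, 8.08 and 7.99 in mesenteric replicates 1 to 5 and 7.24, 7.77 and 8.20 in peripheral replicates 1 to 3. The lowest array in it was also the lowest in the bright member mean, and peripheral replicate 3 and mesenteric replicate 4 were the 2 highest in both. Genes of this list also differed between the sorts (limma). Of its 11 probe sets, 2 passed as higher in mesenteric CD25+ cells, Cd2 (1.66) and Cd5 (1.41). In peripheral CD25+ cells 1 passed as lower, Cd4 (-0.54). In set 1, 3 passed as higher and 1 as lower in Treg cells. The part of this marker level in the result was not tested. Markers of other cells were read beside it. In mesenteric nodes Cd79b, a B cell gene, was higher in CD25+ cells (1.07, adjusted p = 0.0231, limma), the 1 of 7 B cell probe sets that passed. Of these 7, 3 lay above and 4 below 0 (median -0.03). Of 5 exocrine probe sets there, 2 did not overlap and had an unadjusted p under 0.05, and the list mean ran from 4.82 to 5.25 in CD25+ and from 4.68 to 4.82 in CD25- arrays. In peripheral nodes 9 of 11 macrophage, dendritic cell and granulocyte probe sets (median 0.15) and 6 of 7 B cell probe sets (median 0.30) lay above 0, and none passed, with 2 and 1 at an unadjusted p under 0.05. Their part in the member differences was not tested.

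Rps18 lay below 0 in both nodes, like Rps7 (-0.01 in mesenteric and -0.23 in peripheral nodes), against 18 bright members above 0 in both. In peripheral cells Rps18 was 10.04, 10.50 and 10.71 in CD25+ and 10.88, 10.77 and 10.94 in CD25- arrays, without overlap, a difference of -0.45 (SE 0.14, adjusted p = 0.0626, limma). After quantile normalization the adjusted p was 0.0142 (-0.52) and without CD25+ replicate 3 it was 0.0168 (-0.60). In mesenteric nodes it was 10.76, 10.58, 10.80, 10.74 and 10.72 against 10.81, 10.80 and 10.95, with the highest CD25+ and the lowest CD25- array equal to 2 decimals (log2 difference -0.13).

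The runs of array numbers differed in the node comparisons. Within run D (2 CD25+ and 2 CD25- arrays) the mesenteric bright median was 0.04, with 14 of 21 above 0. Within run E (3 and 1) it was 0.56, with 18 of 21 above 0. In peripheral nodes it was 0.12 within run D (2 and 2) and 0.33 within run E (1 and 1). A single CD25- array stands behind each run E value. The actin ratio averaged 2.85 in CD25+ and 2.63 in CD25- mesenteric arrays (exact permutation p = 0.0714, two-sided) and 3.02 against 2.54 in peripheral arrays (p = 0.1, the smallest that the design allows). With it as a covariate the bright medians were 0.35 and 0.23. Without mesenteric CD25+ replicate 2, the array with the CD25- source name, the mesenteric bright median was 0.35. With the replicate block, which the labels do not explain as a pairing here, it was 0.16. Replicate numbers 4 and 5 occurred only among mesenteric CD25+ arrays. The block therefore fits those arrays exactly and takes them out of the comparison. They had the highest bright member means of their group (10.73 and 10.68).

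Genes of ribosome assembly and initiation were read in the nodes as well, where 12.2% of all probe sets passed in mesenteric and 7.69% in peripheral cells. Of 33 nucleolar and assembly probe sets, 4 were lower and 1 higher (Nhp2, 1.22) in mesenteric cells, and 6 were lower in peripheral cells (15.2% and 18.2% called). Rrs1 fell by 2.31 and by 2.76, and the log2 difference of the assembly factor Tsr1 was -1.27 and -1.75. Of 57 initiation factor probe sets, 7 were lower and 2 higher in mesenteric cells and 10 were lower in peripheral cells (15.8% and 17.5% called), with Eif4b at -0.50 and -0.91 and Eif3a at -1.03 and -1.27. Among 13 elongation probe sets Fau, which encodes a ribosomal protein fused to a ubiquitin-like one, rose by 0.27 in mesenteric cells (adjusted p = 0.0497, limma) and none passed in peripheral cells. Of 76 mitochondrial ribosome probe sets, 3 rose and 1 fell in mesenteric cells, and 1 rose and 1 fell in peripheral cells. Of 18 growth control probe sets, 2 rose and 2 fell in mesenteric and none passed in peripheral cells.

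The 4 comparisons of the sorts are set side by side for the bright members. The pancreatic differences were below 0 in both sets for 16 of 21, and the node differences were above 0 in both nodes for 18 of 21. For 13 both held, against 3 of 28 among the other members. Without the library labelled anti-ICOS Treg replicate 3, these counts were 15 of 21 for the pancreas, 12 of 21 for both and 4 of 28 among the others. Of all 711 bright probe sets, 429 lay below 0 in set 1 and 366 in the anti-ICOS comparison. In mesenteric nodes 363 of them lay above 0, and in peripheral nodes 330. The joint pattern was not counted over all bright or all probe sets, so its share there is not known. Rps18 and Rps7, a small subunit protein, were below 0 in all 4, though Rps7 was at -0.01 in the mesenteric nodes. The counts of signs include other values near 0, such as 0.01 for 100758_at of Rps28 in peripheral nodes. Rpsa and 161327_f_at of Rpl10a were above 0 in all 4, and Rpl41 as well without that library. Rps10 had -0.12 and -0.22 in the pancreas and 0.60 and 0.63 in the nodes, and Rplp0 had -0.11 and -0.22 against 0.60 and 0.35.

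**Figure D4:**
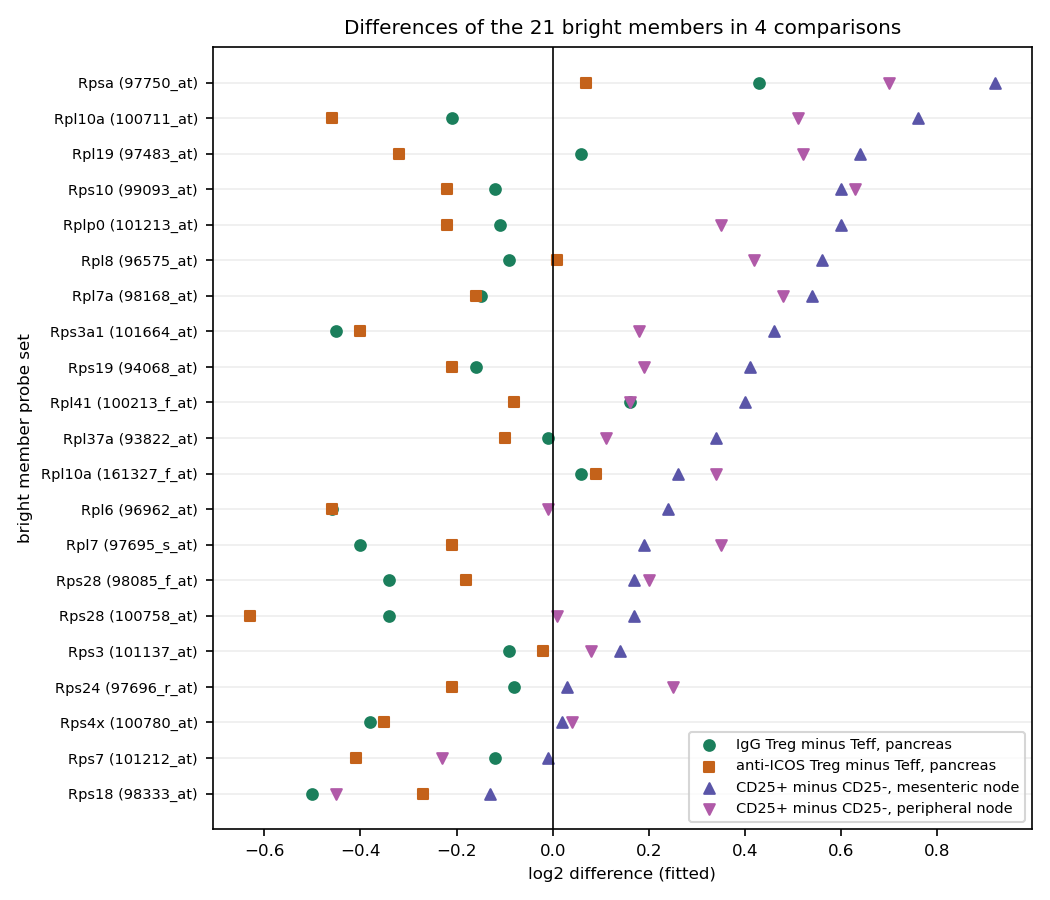
Fitted log2 difference (x) of each of the 21 bright members (y) in 4 comparisons: IgG Treg minus Teff (circles), anti-ICOS Treg minus Teff (squares) and CD25+ minus CD25- in mesenteric (upward triangles) and peripheral nodes (downward triangles). Of the 21, 13 (12 without the library labelled anti-ICOS Treg replicate 3) lie left of 0 in both pancreatic comparisons and right of 0 in both node comparisons. Rps18 and Rps7 lie left of 0 in all 4, with Rps7 at -0.01 in mesenteric nodes.

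Whether the contrast differed between pancreas and nodes was tested as an interaction, the Treg minus Teff difference of set 1 minus the mean CD25+ minus CD25- difference of the 2 nodes. No member passed (limma), while 1.78% of all probe sets did, and 16 members (32.7%) had an unadjusted p under 0.05, against 13.9% of all probe sets. The difference was below 0 for 20 of 21 bright members, with a median of -0.46, against -0.04 over all bright probe sets and 0.00 over all. All settings tried and each array left out kept this median between -0.39 and -0.53. The smallest unadjusted p belonged to 98085_f_at of Rps28 (-0.52, SE 0.15, adjusted p = 0.0885), followed by Rps10 (-0.74, SE 0.28, adjusted p = 0.217). Rps28 passed without mesenteric CD25+ replicate 3 (adjusted p = 0.0364) and Rps10 without peripheral CD25+ replicate 1 (-0.89, adjusted p = 0.0494). Set, tissue, treatment, gate and run differ between the pancreatic and the node arrays and cannot be told apart here.

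Mesenteric and peripheral nodes were compared within each sort. In CD25+ cells no member passed (0.0725% of all probe sets did), and the bright median, mesenteric minus peripheral, was 0.06. An unadjusted p under 0.05 was reached by 3 members (6.12%), against 4.28% of all probe sets. Without peripheral CD25+ replicate 1 the bright median was -0.15, and without replicate 3 it was 0.23. The smallest p values were those of Rps4l (98149_s_at, -0.29), Rps18 (0.31) and the brighter Rpl22 probe set (-0.24), all with adjusted p = 0.972 (limma). In CD25- cells no member passed (0.451%), and the bright median was -0.02. Here 2 members (4.08%) had an unadjusted p under 0.05, against 4.20% of all probe sets. A dim probe set of Rps4x, 161654_r_at, differed by 0.51 (SE 0.13, adjusted p = 0.251), and Rpl22 (92856_at) by -0.28 (adjusted p = 1).

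The 39 probe sets that name a ribosomal protein gene together with other loci give a second reading of the same family, though their targets are uncertain. In set 1 the 23 bright ones had a median of -0.23, with 22 below 0, and 1 of all 39 passed, lower (2.56%, against 6.69% of all probe sets). In the anti-ICOS comparison the median was -0.24, with 20 of 23 below 0 and none passing, and -0.25 with 19 below 0 without the library labelled Treg replicate 3. In the mesenteric nodes it was 0.22, with 18 of 23 above 0. There 3 of all 39 passed as higher and 1 as lower (10.3%, against 12.2% of all probe sets). In the peripheral nodes it was 0.20, with 15 of 23 above 0, and 1 passed as higher and 1 as lower (5.13%, against 7.69%).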

How the data were processed

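The authors deposited 1 table of linear intensity values per probe set and array, and its log2 was taken here. RMA (no version) stands in the submitters' processing notes of pancreas set 2 and of the nodes; for set 1 the method was not given in the sources used here. Values were used as deposited, without further scaling. The 66 controls of the node arrays did not line up with those of set 1 (r = 0.254) until sorted by name (r = 0.952). Of 12422 probe sets, 10833 had 1 gene symbol, 396 several and 1193 none.

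All groups of a set entered 1 two-sided limma fit (version 3.58.1, R 4.3.3), and interactions a joint fit. Benjamini-Hochberg adjustment ran over all probe sets, with a threshold of 0.05, and the fits were tested on simulated data. The bright limit was a mean log2 of 8. The number of arrays limits the precision.

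Members, gene lists and marker lists (T cell identity, CD8 and NK, B cell, macrophage, dendritic and granulocyte, exocrine pancreas, islet, stroma and endothelium, erythroid) were chosen with earlier results of these data known. Text names up to 10 called members each way per comparison. Where none was called, it names up to 3 members with the smallest unadjusted p. None is named so for the difference between the IgG and anti-ICOS contrasts. Also named are the 5 strongest and weakest signals, probe sets of 1 gene over 3 log2 units apart and examples from lists. Members outside this rule were named after their values were seen, in particular those quoted with the bright members. Replicate numbers of set 2 were tried as pairs of Treg and Teff arrays in alternative fits only. Arrays of the same number deviated together (r = 0.59, 0.28 and 0.24), and 4 of 6 samples correlated best with their own number. Treg and Teff replicates 2 and 3 lay in different runs of array numbers, so a pairing is not shown. Alternatives are quantile normalization, probe sets above the median, trend and robust eBayes, the actin covariate, run and replicate blocks, 1 probe set a gene and each array left out; bright members, shared probe sets and the Gapdh ratio were added after seeing the data.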

Additional observations from a re-analysis of the deposited data

Results flagged for a closer look

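In the Teff cells of set 1, Rpl37a stood out in replicate 1, with a log2 intensity of 8.98, while the other 4 arrays lay between 8.43 and 8.58. The gap was above Dixon's limit for 5 samples. This array was also the highest of its group for the bright member mean (11.26) and lay above the group mean for 20 of 21 bright members, with an actin ratio of 2.83. It was 1 of 62 group values examined in this way, and chance alone flags about 1 in 20.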

How the results depend on the processing

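Counts of members that passed and medians over members were recomputed under each alternative, and the actin ratio was replaced by the Gapdh ratio. Leaving out single arrays aside, 177 of these values stayed close to the reported ones, 30 moved, 3 reversed and 1 weakened. The 177 include counts of 0 that stayed 0. In set 1 (2 members passed, median -0.03), 1 passed with trend and robust eBayes, 0 with the actin covariate, 1 with 1 probe set a gene and 1 among bright members, while the median was -0.11 without probe sets marked as not specific and -0.12 among bright members. The anti-ICOS median (-0.03) was -0.13 both for probe sets above the median and with the actin covariate, -0.21 for bright members and -0.10 with shared probe sets. The anti-ICOS minus IgG median (0.04) was 0.12 for probe sets above the median, -0.05 with replicate block and actin covariate, and 0.16 for bright members. In mesenteric nodes (1 passed, median 0.12), 3 passed after quantile normalization, 5 with shared probe sets, and 0 for probe sets above the median, with the actin covariate, with the replicate block, with block and covariate, and among bright members, whose median was 0.34. In peripheral nodes (2 passed), 4 passed with shared probe sets, 1 without probe sets marked as not specific, 1 with 1 probe set a gene, and 0 for probe sets above the median, bright members, the actin covariate, and block with covariate. The median of the set 1 minus node difference (-0.15) was -0.29 for probe sets above the median and -0.46 for bright members. Rpl6 in the anti-ICOS comparison turned to 0.03 with replicate block and actin covariate. The Gapdh ratio in place of actin gave 0.30 in set 1 (exact permutation p = 0.125), -0.11 in peripheral nodes, and, mesenteric minus peripheral, 0.06 in CD25+ and -0.33 in CD25- cells. Some of these shifts follow from which probe sets were counted. Rpl39l and Rps4l, the members that passed in the nodes, lie below the median of all probe sets and are dim. Counts for probe sets above the median or for bright members therefore leave them out. Rpl22, which passed in set 1, is not bright and is left out among bright members. In the mesenteric comparison the replicate block, with or without the covariate, gave no weight to CD25+ replicates 4 and 5. Beyond such changes in the probe sets or arrays counted, the cause of the shifts was not tested.

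With each array left out in turn, 1 to 4 members passed in set 1, 0 to 1 in anti-ICOS minus IgG, 0 to 4 in mesenteric and 1 to 5 in peripheral nodes, 0 to 1 in the set 1 minus node difference, and 0 in the other comparisons. The medians ran from -0.13 to 0.01 (anti-ICOS), from -0.08 to 0.05 (anti-ICOS minus IgG), from -0.04 to 0.09 (set 1 minus anti-ICOS) and from -0.26 to -0.13 (set 1 minus nodes). In the nodes, replicate numbers are not shown to pair samples: 3 of 6 samples correlated best with their own number in each node. The block moved the calls over all probe sets of the mesenteric comparison from 1514 to 832. That fit also gave no weight to mesenteric CD25+ replicates 4 and 5.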
